A study of Mus musculus with 4 samples.

Results

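The clonal line M1 was compared with the clonal lines E1, E2 and M2, which formed tumors in the mammary fat pad in the study while M1 did not. A probe set was counted where the log2 expression level of M1 was higher or lower than in every one of the other 3. Of 21789 probe sets listed with 1 gene symbol, 11334 (52.0%) placed M1 outside that range. M1 was above all 3 lines on 5707 probe sets (26.2%), below all 3 on 5627 (25.8%) and inside the range on 10455. The even split depends on the scaling, with 4483 above and 7712 below after each array was centred on its median, and 5291 and 6389 after quantile normalization. Because 1 of the 4 lines is the highest and 1 the lowest on each probe set, these totals were read beside those of the other lines. E1 lay outside the range of its 3 companions on 10755 probe sets (49.4%), E2 on 9875 (45.3%) and M2 on 11563 (53.1%).

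All lines came from 1 spontaneous mammary tumor of a female FVB/N Tg MMTV/neu mouse, which carries the rat ErbB2 (neu) transgene under the mouse mammary tumor virus promoter, active in mammary epithelium. E1 and E2 were grown from sorted CD24 high, neu high tumor cells, in RPMI medium with 20% serum. M1 and M2 were grown from sorted CD24 low, neu low cells, in MEGM medium with 2% serum, bovine pituitary extract, epidermal growth factor, insulin and hydrocortisone. Each line is 1 clone from limiting dilution, so the mesenchymal-like type and its medium cannot be told apart, and neither can the failure of M1 to form tumors and any other property of this 1 clone. The age of the mouse is not given in the sources used here. RNA of each line was hybridised to 1 Affymetrix MoGene 1.0 ST array, and the values are log2 levels, where a difference of 1 is a 2-fold change. The number of arrays limits the precision, and nothing says that a line was grown more than once, so each p-value measures the spread between clones.

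Cells of a carcinoma that take on a mesenchymal-like state give up E-cadherin junctions, claudins and keratin-anchoring plaques and switch on factors such as Zeb1 and Snai2. Whether such cells can found a tumor depends on their proliferation, on survival and growth factor signals, on the matrix they make, and on how immune and stromal cells respond to them. Insulin-like growth factor binding proteins, small proteoglycans such as decorin, and adaptor proteins that couple membranes to actin belong to these systems.

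The labels were checked against marker genes. The epithelial genes were low in both mesenchymal-like lines. In the order E1, E2, M1 and M2, the E-cadherin gene Cdh1 read 12.15, 12.31, 6.70 and 6.51, and Epcam, an epithelial adhesion molecule, read 12.70, 12.76, 5.77 and 5.46. The vimentin gene Vim read 12.79, 13.10, 13.72 and 13.82, and Zeb1, a repressor of Cdh1, read 7.49, 6.96, 10.99 and 10.64. Cd24a, the gene for the antigen used in the sort, read 11.61, 12.15, 12.39 and 12.53, so its transcript was not lower in the lines sorted as CD24 low. The mouse Erbb2 probe set read 11.83, 11.95, 10.58 and 11.03, the order of the neu sort. Whether the rat transgene binds these mouse probes was not tested. Cdh1, Vim, Epcam and Cd24a were chosen after their values were seen.

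The start regions of genes that stood far apart in M1 are shown first, since CG content there is described by size class in the next paragraph. The 250 bases before the first listed start of each gene are given from RefSeq on GRCm38.p6, 5′ to 3′, with every CG dinucleotide in capitals: Igfbp7 at chr5:77408046-77408295 on the minus strand, Hspb1 at chr5:135887669-135887918 on the plus strand, Ces2e at chr8:104926010-104926259 on the plus strand, Serpinb10 at chr1:107528753-107529002 on the plus strand, Baiap2l1 at chr5:144358113-144358362 on the minus strand, Lgr6 at chr1:135105277-135105526 on the minus strand and Plet1 at chr9:50494275-50494524 on the plus strand.
Igfbp7: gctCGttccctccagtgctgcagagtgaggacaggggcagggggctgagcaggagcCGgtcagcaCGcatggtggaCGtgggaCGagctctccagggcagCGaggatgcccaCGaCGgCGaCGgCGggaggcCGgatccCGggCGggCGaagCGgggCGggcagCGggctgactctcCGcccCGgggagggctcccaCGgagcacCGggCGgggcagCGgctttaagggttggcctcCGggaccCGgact
Hspb1: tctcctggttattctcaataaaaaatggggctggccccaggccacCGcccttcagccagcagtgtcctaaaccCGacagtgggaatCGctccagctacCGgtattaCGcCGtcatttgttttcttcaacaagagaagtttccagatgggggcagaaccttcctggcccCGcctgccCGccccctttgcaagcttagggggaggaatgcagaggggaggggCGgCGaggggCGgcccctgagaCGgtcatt
Ces2e: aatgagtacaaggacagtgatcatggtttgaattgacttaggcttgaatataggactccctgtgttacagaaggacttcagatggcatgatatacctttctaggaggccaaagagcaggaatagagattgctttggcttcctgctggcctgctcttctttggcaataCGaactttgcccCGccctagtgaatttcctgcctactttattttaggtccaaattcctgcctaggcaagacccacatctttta
Serpinb10: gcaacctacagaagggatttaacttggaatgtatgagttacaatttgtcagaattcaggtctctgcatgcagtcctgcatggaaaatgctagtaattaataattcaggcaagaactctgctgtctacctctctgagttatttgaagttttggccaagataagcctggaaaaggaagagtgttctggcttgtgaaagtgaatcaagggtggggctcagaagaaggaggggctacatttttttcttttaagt
Baiap2l1: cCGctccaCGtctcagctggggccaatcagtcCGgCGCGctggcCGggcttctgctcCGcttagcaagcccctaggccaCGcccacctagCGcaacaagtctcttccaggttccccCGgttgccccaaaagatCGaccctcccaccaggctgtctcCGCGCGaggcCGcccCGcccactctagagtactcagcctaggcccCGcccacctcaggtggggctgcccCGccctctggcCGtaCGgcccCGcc
Lgr6: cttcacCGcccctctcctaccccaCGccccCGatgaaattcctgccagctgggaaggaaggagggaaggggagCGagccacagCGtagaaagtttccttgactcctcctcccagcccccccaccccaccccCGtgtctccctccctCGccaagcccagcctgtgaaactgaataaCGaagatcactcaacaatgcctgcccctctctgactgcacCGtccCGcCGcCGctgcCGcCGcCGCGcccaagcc
Plet1: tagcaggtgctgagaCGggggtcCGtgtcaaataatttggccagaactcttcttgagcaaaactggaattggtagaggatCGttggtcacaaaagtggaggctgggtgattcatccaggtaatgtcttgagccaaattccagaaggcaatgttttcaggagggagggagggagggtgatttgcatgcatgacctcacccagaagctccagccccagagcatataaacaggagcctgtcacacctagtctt
Igfbp7 (26 CG) and Baiap2l1 (21 CG) have CG-dense start regions, whereas Serpinb10 has 0 CG, Ces2e has 2 and Plet1 has 3. Hspb1 has 12 and Lgr6 has 16. Dcn and Stac2 are named only.

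Few genes with M1 at least 10-fold above the other lines had a CG-rich start region. Over the 300-base window around the start, from 250 bases before it to 50 after, the ratio of observed to expected CG was at least 0.6 in 52.4% of the 15562 genes with a sequence, out of 19938 genes in all. The share was 59.2% of genes with M1 above the range by under 2-fold, 55.1% at 2 to 4-fold, 37.8% at 4 to 10-fold and 23.8%, or 15 of 63 genes, at 10-fold or more. On the lower side the shares were 47.9%, 66.8%, 63.5% and 56.4%, in the same order of size. Among genes with a mean level above the median of all values, 6.78, the share was 73.6%. The part of the expression level in these shares was not tested.

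M1 and M2 each had larger counts of probe sets far from the other 3 lines than E1 or E2. At a difference of at least 2-fold from the mean of the other 3, M1 was above the range on 722 probe sets (3.31%) and below it on 599 (2.75%). The counts above and below were 694 and 622 for M2, 492 and 551 for E1, and 516 and 481 for E2. At 10-fold or more, M1 was above on 92 probe sets (0.422%) and below on 58 (0.266%), against 78 and 57 for M2, 69 and 36 for E2 and 28 and 46 for E1. Where the gap to the nearest line itself had to be 2-fold, 328 probe sets were above and 166 below in M1, and 287 and 189 in M2. Thus the counts of M1 were near those of M2 in each size class.

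**Figure D1:**
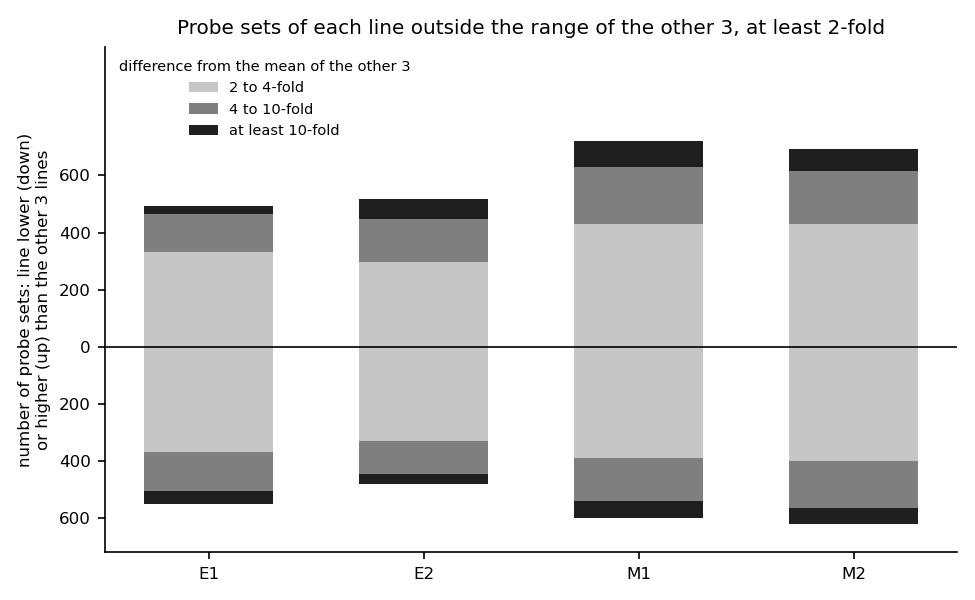
Probe sets on which a line was outside the range of its 3 companions by at least 2-fold; bars above 0 count probe sets with the line higher, bars below 0 count those with it lower, and shades give the size of the difference from the mean of the other 3. M1 (722 higher, 599 lower) and M2 (694 and 622) had longer bars than E1 (492 and 551) and E2 (516 and 481).

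For the rest of the results 1 probe set, the brightest, stood for each of 19938 genes. M1 was above the range in 5222 genes (26.2%) and below in 5103 (25.6%), and by at least 2-fold in 672 (3.37%) and 519 (2.6%). Of these 1191 genes, 64 have more than 1 probe set, and 0 have probe sets that lay 2-fold outside in opposite directions. The median difference over all genes was -0.007. The 3 lines that formed tumors were within 2-fold of each other in 296 of the 672 genes above the range (44.0%) and in 157 of the 519 below it (30.3%). M2 gave like shares, 44.0% and 33.4%, while E1 (18.0% and 11.8%) and E2 (21.1% and 12.5%) gave lower ones.

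Where M2 stood divides the genes. Among the 672 genes with M1 at least 2-fold above, M2 was nearer to M1 than to the mean of E1 and E2 in 309 (46.0%), and among the 519 below in 307 (59.2%). The median difference of M1 from M2 was 1.04 above and -0.69 below, and that from the mean of E1 and E2 was 1.98 and -1.94. At 10-fold or more, M2 was nearer to M1 in 39.5% of 86 genes above but in 74.0% of 50 genes below. Only 3 of those 50 genes (6.0%) had the 3 tumor-forming lines within 2-fold of each other, against 36 of the 86 (41.9%) above. So the largest differences above the range were often seen in M1 alone, and most of those below were shared in large part with M2. Some rest on readings near background, taken as 6.24, the 95th percentile of the olfactory receptor probe sets. The mean of the other lines exceeded it in 55 of the 86 genes above. M1 exceeded it in 19 of the 50 below. Where M1 and M2 were both under it, their order is not clear.

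**Figure D2:**
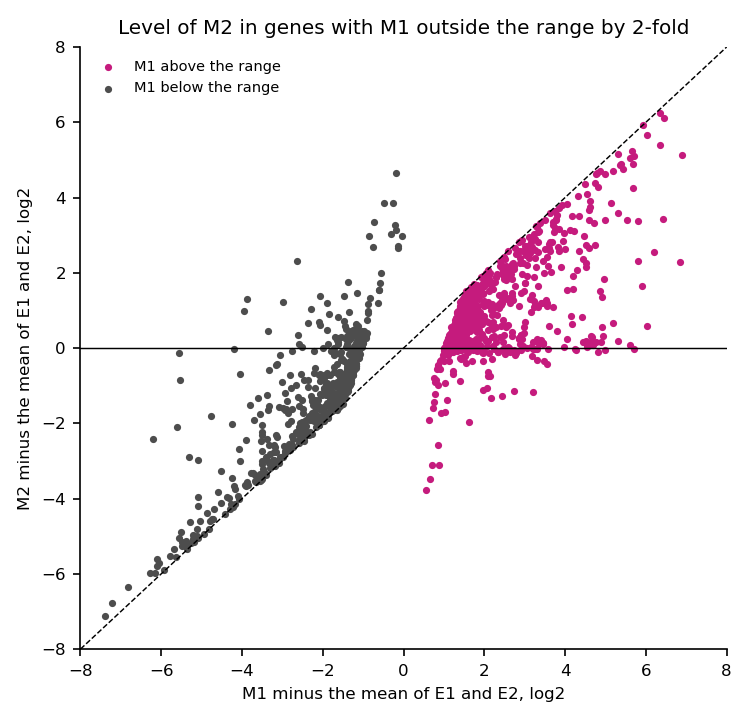
Each point is a gene with M1 outside the range of the other 3 lines by at least 2-fold (672 above, 519 below); the horizontal axis is M1 and the vertical axis M2, each as the log2 difference from the mean of E1 and E2. Points near the dashed line have M2 at the level of M1 and points near 0 on the vertical axis have M2 at the level of E1 and E2. Points of both kinds are seen on either side, with M2 nearer to M1 in 309 of the 672 genes above and in 307 of the 519 below.

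Tested with limma, M1 differed from the mean of the 3 other lines on 22 of 23410 probe sets at an adjusted p under 0.05, of which 20 were higher (0.0854%) and 2 lower (0.00854%). The fit had 2 residual degrees of freedom and assumed that M1 varies like the others, and an exact permutation test of 1 line against 3 cannot go below p = 0.25. The unadjusted p was under 0.05 on 1640 probe sets. The test favours genes on which E1, E2 and M2 nearly coincide. Its count was 0 without E1 (873 at an unadjusted p under 0.05) or without E2 (865), and 1879 without M2. Of the 150 probe sets with M1 outside by at least 10-fold, 18 were called and 75 had an unadjusted p under 0.05. The 95th percentile of the olfactory receptor probe sets, 6.17 to 6.28 in the 4 arrays, served as a reference for genes not in use. The mean of the other lines lay under it on 13 of the 21 called probe sets with 1 gene symbol. The other called probe set names more than 1 gene. So most of the called genes went from under that level to above it in M1, though Serpinb7 reached only 6.77.

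Among secreted and matrix proteins, limma called Igfbp7 and Dcn. Igfbp7, a secreted protein that binds insulin-like growth factors and matrix, read 7.04 in E1, 7.06 in E2, 7.02 in M2 and 12.76 in M1. M1 was higher by 5.72 ± 0.11 (SE), 52.6-fold (limma, adjusted p = 0.0338) and the other 3 lines nearly coincided. The proteoglycan gene Dcn read 5.49, 5.62 and 5.74 in E1, E2 and M2 and 10.08 in M1 (limma, adjusted p = 0.0476). The membrane receptor gene Pdgfrb, a PDGF receptor of pericytes, read 5.86, 6.03, 5.92 and, in M1, 9.51 (limma, adjusted p = 0.0498).

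Among stress and metabolic genes, Hspb1 rose on both of its probe sets. Hspb1 encodes a small heat shock protein, and its probe sets read 6.46 to 6.53 and 6.28 to 6.35 in the other lines and 11.50 and 11.67 in M1 (limma, adjusted p = 0.0338 for each). Ces2e, a carboxylesterase, read 5.54, 5.58 and 5.65 in E1, E2 and M2 and 11.16 in M1, and Cd36, a fatty acid and thrombospondin receptor, read 4.46, 4.36, 4.50 and 9.10. Slc38a1, a glutamine transporter, read 5.34, 5.36, 5.54 and 10.66, with the same adjusted p = 0.0338 by limma as Ces2e and Cd36. In all 3 genes the lone high line was M1 and the others did not reach the olfactory reference.

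Further genes that rose encode a sugar-adding enzyme of the Sda glycan (B4galnt2, 6.07 or less in the others and 10.53 in M1), a polyphosphate phosphohydrolase (Nudt11, 4.15 or less and 8.63) and the intracellular serpin Serpinb10 (4.66 or less and 9.42), each at adjusted p = 0.0338 by limma. The kappa opioid receptor gene Oprk1 (4.56 or less and 8.73) and Ptprn, a secretory granule protein (6.76 or less and 11.49), followed at adjusted p = 0.0385 by limma. The neurotrophin receptor gene Ntrk3 (5.97 or less and 9.84), Serpinb7 (3.53 or less and 6.77) and Fam107a (7.89 or less and 11.16) had an adjusted p of 0.0476 by limma. Gxylt2 read 6.41 or less in the other lines and 9.76 in M1, and Brinp3 5.08 or less and 7.98 (limma, adjusted p = 0.0499 for both), while E230016K23Rik read 5.59 or less and 8.63 (limma, adjusted p = 0.0488).

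Both genes that limma called lower encode adaptors. Stac2, which binds calcium channels in neurons and muscle, read 11.79 in E1, 11.90 in E2, 11.71 in M2 and 6.28 in M1, lower by 5.52 ± 0.14 (SE), 46.0-fold (limma, adjusted p = 0.0338). The level of Stac2 in M1 was near the olfactory reference of 6.24, so its fold depends on a reading near background. For Baiap2l1, which links membranes to actin, the call rests on 1 of 3 probe sets. That probe set read 10.97, 10.80 and 10.89 in E1, E2 and M2 and 5.67 in M1 (limma, adjusted p = 0.0338). The brightest probe set of Baiap2l1 read 14.13, 14.14 and 14.13 in E1, E2 and M2, with M1 at a difference of -0.14 from their mean, and the other read 11.41, 11.40, 11.47 and, in M1, 11.31. Thus only 1 of the 3 probe sets gave a large fall in M1, to a level under the olfactory reference. The other 2 differed little, by -0.14 and -0.12. Which exons the 3 probe sets cover was not examined. Baiap2l1 was 1 of 17 genes with M1 outside by 2-fold only on a dimmer probe set.

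At smaller sizes, the widest gaps above the range were at genes of unlike function, among them a kinase, a serpin and a chemokine. At 2 to 4-fold above, the widest gaps were at Nuak2, Kctd16, Cyp2f2, Slitrk6, Zfp979 and Papss2. Nuak2, a kinase of the LKB1 pathway, read 6.44, 6.75 and 6.78 in E1, E2 and M2 and 8.63 in M1. Kctd16 read 6.52 or less in the others and 8.30 in M1, and the cytochrome Cyp2f2 6.57 or less and 8.36. Papss2, which makes the sulfate donor of proteoglycan synthesis, read 5.29 or less and 7.04. Slitrk6 (4.01 or less and 5.79) and Zfp979 (3.48 or less and 5.23) stayed under the olfactory reference in every line. Adjusted p values of these 6 genes ran from 0.103 to 0.213 by limma. At 4 to 10-fold they were Serpinb7, the membrane scaffold Ank2 (6.54 or less and 9.78), the monocyte chemokine Ccl7 (6.77 or less and 9.85), the meiotic gene Rec114, the aspartoacylase Aspa (4.63 or less and 7.67) and Ddit4l. Of these only Serpinb7 was called, and Ank2 and Aspa had an adjusted p of 0.0504 by limma.

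Below the range, the widest gaps were at genes of unlike function, among them a translation factor, a kinase, a sulfotransferase and a histone variant. At 2 to 4-fold these were the translation factor Eif4g3 (10.56, 10.40 and 10.47 in E1, E2 and M2 and 8.49 in M1), the kinase Cdc42bpb (10.45 or more and 8.69), the inositol transporter Slc5a3 (10.29 or more and 8.59), Hyal3, Tbc1d24 and Cnksr1. At 4 to 10-fold they were the chondroitin sulfotransferase Chst11 (10.37 or more and 7.48), the repressor Mga, a partner of Max (8.56 or more and 5.81), the histone variant gene Macroh2a2 (8.42 or more and 5.70), the RNA-binding protein gene Rbm47, Scly and Pacs1 (10.78 or more and 8.21). None of the 12 was called, and the lowest adjusted p was 0.0537, for Pacs1 (limma). M1 was under the olfactory reference in Tbc1d24 (6.11), Mga and Macroh2a2, so those folds rest on a level not above background.

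At 10-fold or more below, apart from Stac2, the widest gaps were at genes that limma did not call. Plet1, a surface protein of epithelial progenitors, read 13.48 in E1, 13.29 in E2, 12.54 in M2 and 7.86 in M1 (limma, adjusted p = 0.17). Lgr6, an R-spondin receptor of the Wnt pathway, read 10.60, 11.82, 11.19 and 7.01, and Dock8, an activator of Cdc42, read 11.18, 11.68, 10.75 and 7.38, so M2 was with the epithelial lines in each. Scrn1 (12.01, 12.09, 9.64 and 5.84) and Mboat2, a phospholipid acyltransferase (10.43, 10.52, 8.39 and 4.86), had M2 between. In both, M1 was under the olfactory reference, which it exceeded in 19 of the 50 genes at 10-fold or more below. Above the range, Ces2g read 5.5, 5.65, 6.16 and, in M1, 11.61 (limma, adjusted p = 0.0751). The genes next to the thresholds were near-ties. Fam107a (10.0-fold) was just inside and Abcb1b (9.92-fold) just outside the 10-fold band above, and Ocln (10.1-fold) and Cadps2 (9.88-fold) were the pair below, where M1 read 5.67 and 5.51, under the olfactory reference, so both folds rest on a level not above background. At 2-fold they were Nod1 and Ephb6 above and Clic5 and Cpsf3 below.

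**Figure D3:**
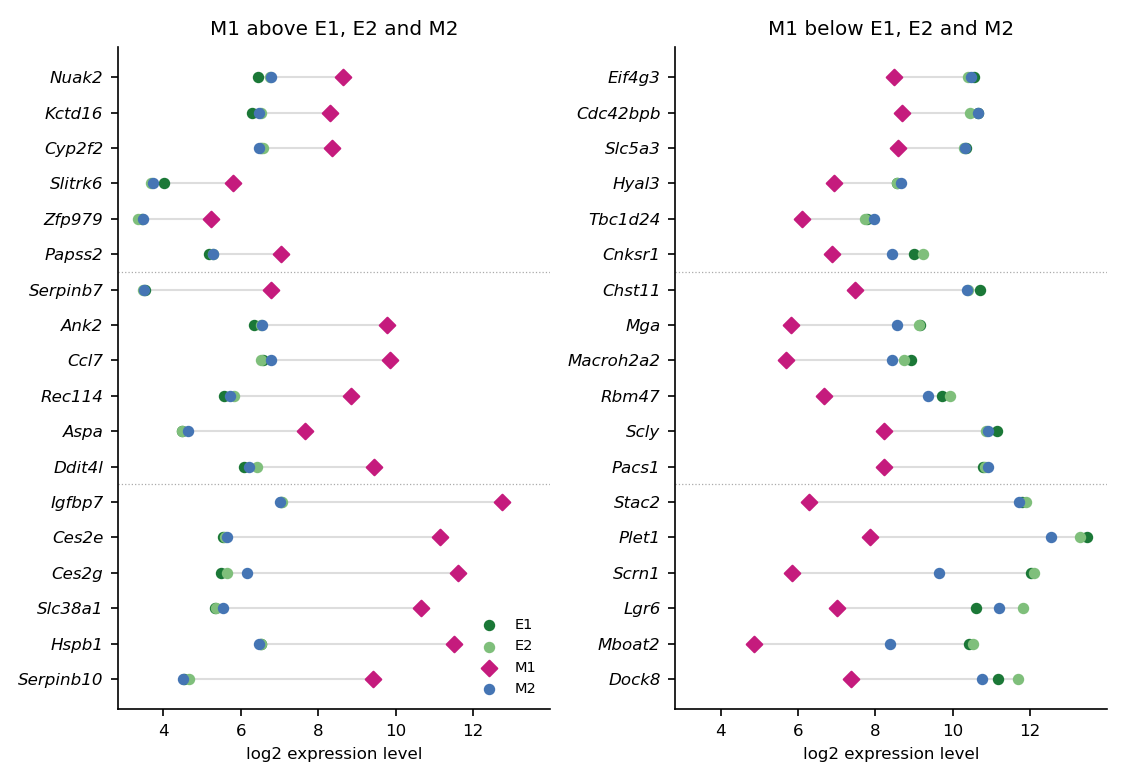
Log2 expression level in the 4 lines, 1 array each, of the 6 genes with the widest gap between M1 and its nearest line in each size class, from 2 to 4-fold (top) to 10-fold or more (bottom). E1, E2 and M2 fall close together in most genes on the left, and M2 is set apart from E1 and E2 in Scrn1 and Mboat2 on the right.

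Proliferation genes were above the range in M1 as a class but by small amounts. Of 47 genes of DNA replication, M1 was above all 3 lines in 37 and below in 2, with a median difference of 0.54 beside -0.007 over all genes. Only 4 reached 2-fold and 0 were called by limma, with 12 at an unadjusted p under 0.05, all higher. Over all 19938 genes, limma gave 895 higher and 511 lower at that p. M1 was above the range in 26.2% of all genes and below in 25.6%, the shares to set beside each list. Lig1, the ligase of lagging-strand synthesis, read 8.46 in E1, 8.74 in E2, 8.75 in M2 and 9.81 in M1. The helicase gene Mcm4 read 9.74, 9.78, 9.89 and 10.81, and Uhrf1, which guides maintenance methylation, read 8.52, 8.93, 9.32 and 10.16. M2 lay with E1 and E2 here, being nearer to M1 in 4 of the genes outside the range.

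The mitosis list differed in the place of M2. Of 53 genes, 37 were above and 0 below, with a median of 0.58 (0.31 without E1), 3 at 2-fold and 0 called by limma (2 at an unadjusted p under 0.05). M2 was nearer to M1 in 28 of the 37. The cohesin regulator gene Cdca5 read 8.17, 8.73, 8.91 and, in M1, 9.99, the kinetochore gene Nuf2 read 8.03, 8.60, 9.44 and 10.04, and Aurkb, a mitotic kinase, read 10.36, 10.99, 11.39 and 11.80. The order E1, E2, M2, M1 held in each of the 3. Among cell cycle regulators, 11 of 20 were above and 3 below, including Ccne1 (8.17, 8.13, 7.79 and 9.27) and Ccne2 (6.94, 6.99, 7.51 and 8.52), the cyclins that start replication, and the inhibitor Cdkn2d (7.27, 7.76, 8.26 and 8.98). Cdk6, a kinase of the G1 phase, was below, at 11.45, 11.50, 11.76 and 10.84.

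Target genes of p53, a factor that halts division or triggers death after damage, were above the range in 23 of 36 and below in 3. Their median was 0.50, with 8 above and 1 below at 2-fold. Fas, a death receptor, read 6.18 in E1, 6.49 in E2, 6.2 in M2 and 9.13 in M1 (limma, adjusted p = 0.103). The autophagy gene Dram1 read 6.74, 6.71, 8.15 and 9.91, and Eda2r, a receptor of the tumor necrosis factor family, read 5.25, 5.2, 9.08 and 10.37, with M2 high as well. Trp53inp1 read 10.37, 10.37, 10.47 and 11.62, whereas Trp53i11 was the lowest in M1, at 9.63, 11.39, 12.81 and 7.86. Of 26 genes of the BCL2 and caspase group 8 were above and 2 below, led by the inhibitor of apoptosis Birc3 (6.51, 6.41, 7.33 and 8.64).

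Mitochondrial classes had small differences in many genes. M1 was above the range in 31 of 59 genes of oxidative phosphorylation and below in 3, and in 46 and 4 of 77 mitochondrial ribosomal protein genes. The median differences were 0.14 and 0.20, and 0 and 1 genes reached 2-fold. Without M2 the median of oxidative phosphorylation was 0.06. Ndufa5, of complex I, read 8.21, 8.14, 8.24 and, in M1, 8.65, and Mrpl14 read 9.91, 9.83, 9.91 and 10.63. Cytosolic ribosomal proteins went the other way in count, with 7 of 57 above and 24 below. Cholesterol synthesis was above in 12 of 20 and below in 1, at a median of 0.42, with the sterol desaturase gene Sc5d at 10.28, 9.99, 10.75 and 11.23. Of 347 zinc finger protein genes, 138 were above and 58 below, at a median of 0.07 (0.11 without E1 and 0.01 after median centring). At 2-fold 20 of these were above and 1 below, among them Zfp57, which protects imprinted methylation (6.33, 6.44, 7.23 and 10.53).

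Enzymes that detoxify foreign compounds and aldehydes were more often above the range than below it. Of 48 glutathione transferases, carboxylesterases and conjugating enzymes, 23 were above the range and 7 below, with 13 and 3 at 2-fold and a median of 0.33. In 25 of the 48 the lower of M1 and the mean of the other lines exceeded the olfactory reference, and with values under that level set to it the median was 0.06. Beside Ces2e and Ces2g, which are close copies on chromosome 8 whose probes may cross-react, Gsta3 read 6.42 in E1, 6.14 in E2, 8.11 in M2 and 11.26 in M1. Of 45 genes of aldehyde and retinoid metabolism, 20 were above and 8 below, with 6 and 1 at 2-fold. Aldh1a1, a retinal dehydrogenase, read 5.61, 5.83, 8.0 and 12.57, and its close copy Aldh1a7 read 5.37, 6.02, 7.05 and 10.61. Akr1c14, a hydroxysteroid dehydrogenase, read 4.68, 4.99, 5.02 and 9.50 (limma, adjusted p = 0.0504), so here M2 stayed with E1 and E2.

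Antioxidant genes leaned the same way. Of 32 Nrf2 targets and glutathione genes 18 were above and 3 below, at a median of 0.33, with 6 and 1 at 2-fold. Gclc, which starts glutathione synthesis, read 10.78, 10.39, 11.34 and, in M1, 12.46, and Hmox1, which breaks down heme, read 10.42, 10.13, 11.12 and 12.14. The Nrf2 target Nqo1 did not separate the lines (5.2, 5.37, 5.16 and 5.24). Of 48 ABC transporters 16 were above and 5 below, with 6 and 0 at 2-fold. The drug exporter gene Abcb1b read 7.19, 5.60, 10.30 and 11.01, and Abcc5 read 7.32, 6.84, 8.73 and 10.40. Hydrocortisone is named for the medium of M1 and M2 only. Its part was not tested and cannot be told apart from the mesenchymal-like type. The metallothionein and glucocorticoid target list (11 of 28 above, 5 below, median 0.46) had a median difference of M1 from M2 of -0.02. Its median was 0.26 without E1, 0.23 without E2 and 0.76 without M2. Within that list Orm1, an acute phase protein, read 5.94, 6.13, 7.56 and 10.89.

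Serpins and granule proteases were more often above the range than below it. Of 35 serpins and other secreted inhibitors 13 were above and 5 below, with 10 and 0 at 2-fold. Serpinb6b read 5.48 in E1, 5.52 in E2, 6.15 in M2 and 9.67 in M1. Serpinb9, an inhibitor of granzyme B, read 5.24, 5.63, 8.10 and 10.03, and its copy Serpinb9b read 6.14, 6.37, 9.01 and 10.99. In the run of 15 neighbouring genes from Wrnip1 to Nqo2 on chromosome 13, which holds these serpins, M1 was above in 8 and below in 1, with a median of 1.72, the highest of any such run. Of 20 granule proteases 10 were above and 2 below, with 5 and 0 at 2-fold. Only 8 of the 20 granule proteases, and 25 of the 35 inhibitors, exceeded the olfactory reference in any line. Gzme, a granzyme, read 7.35, 7.98, 8.23 and, in M1, 12.57, Ctsg read 5.46, 5.5, 5.65 and 7.93, and Mcpt8 read 5.07, 5.85, 10.59 and 12.35. Since members of both families are near copies, probes may read more than 1 gene.

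The granule proteases are known from blood cells, so markers of such cells are given beside them. Of 10 T and NK cell markers, M1 was above the range in 0 and below in 5, and 2 of the 10 exceeded the olfactory reference in any line. Cd3e, a subunit of the T cell receptor complex, read 6.73 in E1, 6.90 in E2, 6.89 in M2 and 6.62 in M1. The 10 markers summed on the linear scale gave log2 levels of 9.08, 9.11, 9.13 and, in M1, 9.0. Of 10 mast cell markers 2 were above and 3 below, and their sums ran from 9.20 to 11.86 with M1 at 11.37. The pan-leukocyte gene Ptprc stayed under the reference, at 5.51, 5.59, 5.54 and 5.88. Myeloid markers were above in 5 of 14 and below in 2, mainly through lysozyme (Lyz2: 5.08, 5.65, 6.57 and 8.91), and their sums were 11.42, 11.55, 12.78 and, in M1, 11.96. B cell markers (1 of 7 above), endothelial markers (4 of 10) and erythroid markers (0 of 2) read 8.60 to 8.78, 9.48 to 9.79 and 6.93 to 7.11 as sums over the 4 lines.

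Matrix genes were split. Of 24 proteoglycans 13 were above the range and 4 below, with 4 and 1 at 2-fold. Only 12 of the 24 exceeded the olfactory reference in any line. With values under that level set to it, their median difference fell from 0.12 to 0. Next to Dcn stood its relative Ogn (4.36 in E1, 4.40 in E2, 6.02 in M2 and 10.28 in M1), the intracellular Srgn (4.90, 4.92, 7.46 and 11.12) and Prelp (10.22, 9.62, 7.96 and 11.54). Of 40 matrix glycoproteins, 11 were above and 13 below. Efemp1, a fibulin, read 5.51, 5.56, 5.53 and 8.07 (limma, adjusted p = 0.0504), and Fbln2 read 6.89, 7.01, 11.84 and 12.64, with M2 nearly as high. Of 44 collagens 8 were above and 15 below, with Col6a1 (7.17, 7.51, 7.62 and 9.73) above and Col18a1 (10.67, 10.38, 8.22 and 7.02) below.

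Fibroblast and pericyte markers lay on both sides of the range. Of 14 markers 4 were above the range and 4 below, with 3 and 0 at 2-fold. The 3 were Dcn, Pdgfrb and the muscle filament gene Des (6.04, 6.28, 6.84 and, in M1, 7.88), whereas Lum read 3.66 in M1 against 3.89 or more and Col1a1, the main fibrillar collagen, read 7.41 against 7.54 or more. The summed level of the markers was 10.41 in E1, 10.57 in E2, 11.72 in M2 and 12.09 in M1. The part of other cell types in the levels of Dcn and Pdgfrb was not tested.

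Shedding proteases and protocadherins were more often below the range than above it. Of 45 ADAM and ADAMTS genes 21 were below the range and 5 above, with 6 and 1 at 2-fold and a median of -0.13. Adam17, the main sheddase of epidermal growth factor ligands, read 11.45 in E1, 10.98 in E2, 10.98 in M2 and 10.19 in M1, Adamts14 read 8.03, 8.50, 8.98 and 6.80, and Adamts8 read 7.70, 7.86, 7.94 and 6.74. Adam12 was an exception (6.27, 6.27, 7.00 and 8.31). Of 34 protocadherins 17 were below and 4 above, among them Pcdhb22 (8.06, 8.54, 7.58 and 6.48), while Pcdh19 was above (6.10, 6.03, 8.22 and 9.97). The olfactory receptor genes also had more members below (31.2%) than above (17.8%). The lower of M1 and the mean of the other lines exceeded the olfactory reference in 21 of the 45 ADAM genes and 16 of the 34 protocadherins, and with values under that level set to it both medians were 0. The part of background signal in these counts was not tested.

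Epithelial junction and identity genes were low in both M1 and M2. Of 35 genes 17 were below the range, 15 by at least 2-fold, and 0 above. The median difference of M1 from E1 and E2 was -3.16 and from M2 -0.07, and M2 was nearer to M1 in 16 of the 17. Ocln, of tight junctions, read 10.16 in E1, 10.39 in E2, 6.45 in M2 and 5.67 in M1. Grhl2, an activator of epithelial genes, read 10.47, 10.76, 6.22 and 5.73, and Cldn7 read 11.55, 11.12, 6.28 and 5.77. Of 20 mesenchymal genes 8 were above and 3 below, with Snai2 (6.03, 5.57, 9.39 and 11.12) above and Sox4 (11.25, 11.16, 10.18 and 8.84) below.

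Targets and feedback inhibitors of ERK, the kinase downstream of ErbB2 and other growth factor receptors, were below the range in 12 of 28 and above in 3, with 6 and 1 at 2-fold and a median of -0.23 (-0.53 without M2). Etv1, a transcription factor, read 12.08 in E1, 12.04 in E2, 12.34 in M2 and 10.52 in M1, and Spry2, a feedback inhibitor, read 10.69, 10.34, 10.35 and 8.95. Dusp5, an ERK phosphatase, read 10.31, 9.88, 10.47 and 8.90. In these 3 M2 was with E1 and E2, whereas for Spry4 (11.51, 11.39, 9.40 and 9.0) and Dusp6 (13.21, 13.31, 11.75 and 11.57) M2 was close to M1. Dusp1 was above the range (10.94, 9.37, 11.24 and 12.43). Limma called 0 of the 28, and 4 had an unadjusted p under 0.05, all lower, beside 511 lower of all 19938 genes.

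Growth factor ligands leaned the other way, with 20 of 55 above the range and 11 below, and 8 and 3 at 2-fold. Fgf2, a fibroblast growth factor, read 5.82 in E1, 5.66 in E2, 5.98 in M2 and 8.67 in M1 (limma, adjusted p = 0.102). Vegfd, a lymphatic growth factor, read 6.31, 6.42, 8.95 and 10.70, and the matricellular Ccn5 read 7.57, 7.86, 8.41 and 10.72. Of 49 receptor tyrosine kinases 14 were above and 15 below, led by Ntrk3 and Pdgfrb above and by Ephb4 (10.47, 10.67, 10.30 and 9.42) below. Igf2r, which takes up and degrades insulin-like growth factor 2, read 12.19, 11.96, 11.17 and 9.06.

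Wnt, BMP and Hedgehog genes lay on both sides of the range. Of 53 Wnt genes 10 were above and 22 below, with 4 each at 2-fold, and Lgr6 was the lowest of them while Axin2, a target of the pathway, was above (6.37 in E1, 6.54 in E2, 7.02 in M2 and 8.74 in M1). Of 54 TGF-beta and BMP genes 15 were above and 14 below. Id4, an inhibitor of DNA binding, read 7.76, 7.78, 6.59 and 10.98 and its relative Id2 read 12.36, 12.64, 10.89 and 9.73. The ligand gene Bmp4 read 5.89, 6.08, 9.37 and 11.80. Of 33 Notch and Hedgehog genes 8 were above and 12 below, with Hhip, which sequesters Hedgehog ligands, at 5.40, 5.76, 9.01 and 12.01.

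Glycolysis and hypoxia genes were below the range in 16 of 38 and above in 1, with 5 and 0 at 2-fold. Limma called 0, and 5 had an unadjusted p under 0.05, all lower, beside 511 lower of all 19938 genes. Their median difference was -0.20. The median was -0.05 without M2, since M1 differed from M2 by a median of -0.40 and from E1 and E2 by -0.05. Pfkl, a phosphofructokinase, read 11.54 in E1, 11.58 in E2, 11.69 in M2 and 10.38 in M1, and Vegfa, a vessel growth factor induced by hypoxia, read 11.74, 11.19, 11.92 and 10.48. Among these, M2 was nearer to M1 in 2. Fatty acid genes were mixed (18 of 53 above, 10 below), with lipoprotein lipase (Lpl: 5.52, 5.89, 6.79 and 9.40) above and the desaturase Scd1 (13.44, 13.37, 13.19 and 12.12) below. Of 39 amino acid transporters 14 were above and 9 below, with 5 and 1 at 2-fold. After Slc38a1 came the betaine and GABA transporter Slc6a12 (6.35, 6.64, 6.66 and 10.94; limma, adjusted p = 0.0504) and the arginine transporter Slc7a2 (5.75, 5.80, 5.67 and 8.41; limma, adjusted p = 0.0537).

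Signals to immune cells differed gene by gene. Of 31 chemokines 7 were above and 11 below, with 4 and 1 at 2-fold. Ccl2, which recruits monocytes, read 6.67 in E1, 6.85 in E2, 8.82 in M2 and 11.07 in M1, and Ccl9 read 6.41, 6.92, 6.77 and 9.55. Cd80, a costimulator of T cells, read 5.54, 5.54, 5.87 and 10.48 (limma, adjusted p = 0.0504). Of 23 costimulatory and checkpoint ligands 6 were above and 5 below, and the inhibitory ligand gene Cd200 read 10.15, 10.58, 8.83 and 7.78. The interleukin gene Il7, a lymphocyte survival factor, read 4.69, 4.74, 4.73 and 7.32 (limma, adjusted p = 0.0504). The complement protease C1s1 read 4.33, 4.25, 4.59 and 8.96 (limma, adjusted p = 0.0504) and its partner C1ra read 5.5, 5.66, 6.71 and 9.12. Other members went the other way: of 31 complement genes 9 were above and 12 below, and of 76 interleukins and their receptors 16 and 31. Nectin2, bound by receptors of NK cells, read 8.97, 8.56, 8.54 and 10.25. Raet1d, a ligand of the same cells, read 4.84, 4.61, 8.24 and 8.90.

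M1 rarely stood outside the range in antigen presentation or interferon genes. Of 23 genes of MHC class I presentation 5 were above and 0 below, H2-M3 by the most (6.30 in E1, 6.70 in E2, 9.02 in M2 and 9.52 in M1). Of 40 interferon-stimulated genes 3 were above and 1 below, since E2 was high in them, and the sums of the 40 were 14.45, 16.33, 14.43 and, in M1, 14.85. Among nuclear receptors 13 of 44 were above and 9 below, with the oxysterol receptor Nr1h3 at 8.50, 8.11, 8.17 and 10.43 and the estrogen receptor gene Esr1 at 6.58, 6.61, 7.45 and 8.59. Of 68 receptors for hormones and transmitters 17 were above and 21 below, led by Oprk1 and then by Npy1r, a receptor of neuropeptide Y (4.73, 5.02, 4.81 and 7.62). Of 37 Hox genes 4 were above and 12 below, 0 by 2-fold.

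**Figure D4:**
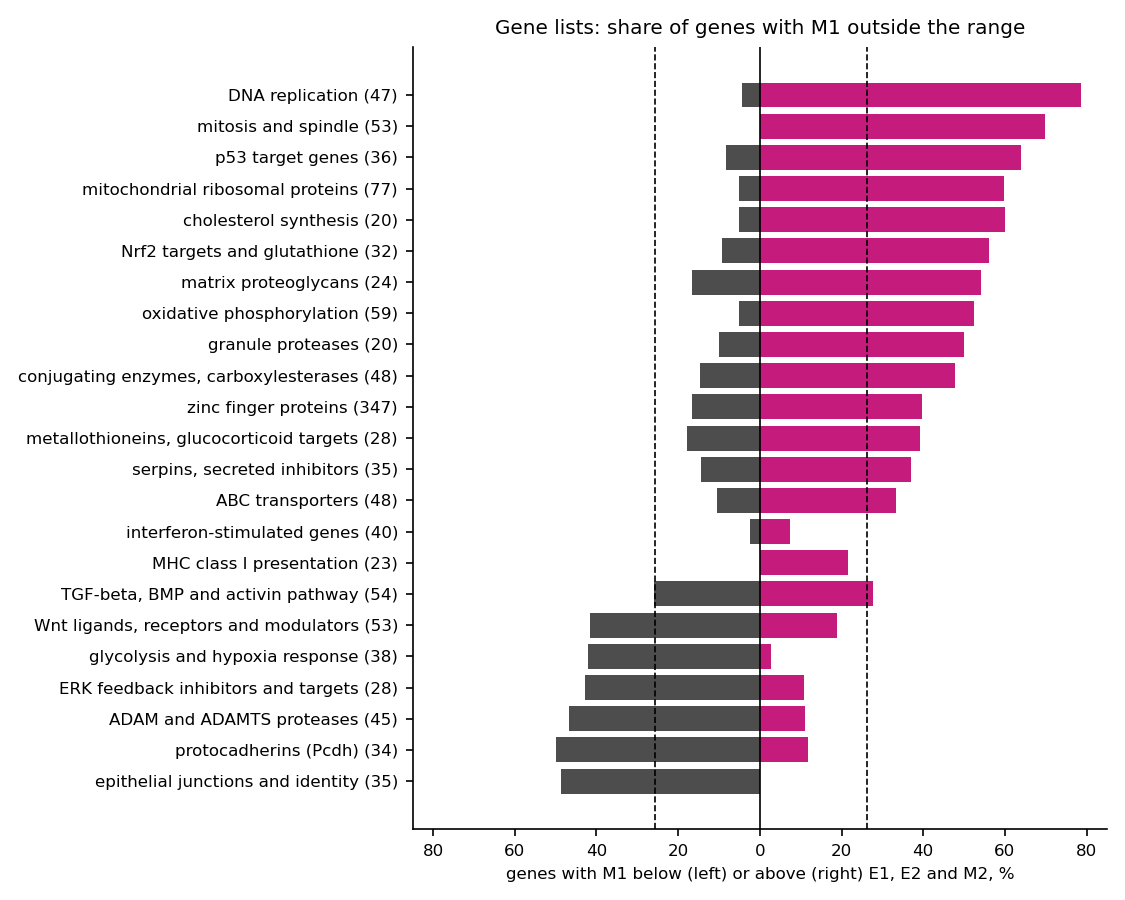
Share of the measured genes of selected lists (number of genes in brackets) with M1 above (right) or below (left) E1, E2 and M2 at any size; the dashed lines mark the shares over all genes, 26.2% above and 25.6% below. Of the lists drawn, DNA replication (37 of 47) and mitosis (37 of 53) reach furthest right, and protocadherins (17 of 34), epithelial genes (17 of 35) and ADAM proteases (21 of 45) furthest left.

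Genes of chromosome 12 were lower in M1 along its whole length. Among genes above the median level of 6.78, named by chromosome from the GRCm38.p6 gene table (19855 of 19938 genes matched), chromosome 12 had 426. M1 was lower than the mean of the other lines in 387 of these (90.8%), below all 3 in 304 (71.4%) and above all 3 in 9. The median difference was -0.56, a factor of 1.48, with quartiles of -0.87 and -0.23. Over genes of this kind on all chromosomes, M1 was above the range in 29.6% and below in 23.6%, and by at least 1.5-fold in 9.96% and 7.95%. On chromosome 12 the share below by at least 1.5-fold was 43.9%, against 4.02% to 11.4% on the others. Limma called 0 of the 426, and 150 had an unadjusted p under 0.05, all lower. Over all 19938 genes, at any level and with these 150 included, 511 were lower at that p.

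The same shift was seen against each line in turn. The median over the 426 genes was -0.56 for M1 minus E1, -0.53 for M1 minus E2 and -0.52 for M1 minus M2, while the medians between the other 3 lines were 0.01 to 0.02. In 8 consecutive blocks along the chromosome the median of M1 ran from -0.72 (Cpsf3 to Agmo) to -0.33 (Yy1 to Tmem196). For M1 the next lowest chromosome median was -0.08 and the highest 0.15, on chromosomes 6 and 16. The largest median of any other line on any chromosome was -0.27, for M2 on chromosome 7. The 5 lowest runs of 15 neighbouring genes were all on chromosome 12, and the lowest was Plekhg3 to Plekhh1 with a median of -1.13 and 14 genes below. Copy number was not measured in these samples.

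Genes that every cell uses show the shift, here picked after their values were seen. The proteasome genes Psma6 (11.77 in E1, 11.73 in E2, 11.35 in M2 and 10.64 in M1), Psma3 (11.96, 12.01, 12.02 and 11.26) and Psmc1 (11.03, 11.10, 10.66 and 10.08) were the 3 of their family on chromosome 12, and all were below. The ribosomal protein gene Rps29 read 12.09, 12.27, 12.07 and 11.33. Sos2, an activator of Ras, read 11.01, 11.03, 10.94 and 9.91, Max, the partner of Myc and Mga, read 11.30, 11.19, 11.02 and 10.59, and the farnesyltransferase gene Fntb read 9.91, 9.91, 10.12 and 8.85. The hypoxia factor gene Hif1a read 12.39, 12.11, 12.27 and 11.73. Etv1, Adam17, Id2, Mboat2, Cdc42bpb and Cpsf3, named earlier, also lie on chromosome 12.

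The chromosome holds 3.28% of all genes but 72 of the 518 genes with M1 below by at least 2-fold (13.9%) and 125 of the 516 below by 1.5 to 2-fold (24.2%). Without it, 446 genes were below by 2-fold and 44 of 50 by 10-fold, and 668 of 671 were above by 2-fold. Adssl1, an enzyme of purine synthesis, read 9.60 in E1, 10.68 in E2, 11.44 in M2 and 6.27 in M1, and Hpcal1, a calcium sensor, read 9.89, 10.05, 11.20 and 7.00, so single genes exceeded the shift of the chromosome. Among genes of the chromosome above the median level, the widest gap above the range, chosen after its values were seen as were Adssl1 and Hpcal1, was that of Ifi27l2a (6.01, 7.78, 6.19 and 8.11).

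**Figure D5:**
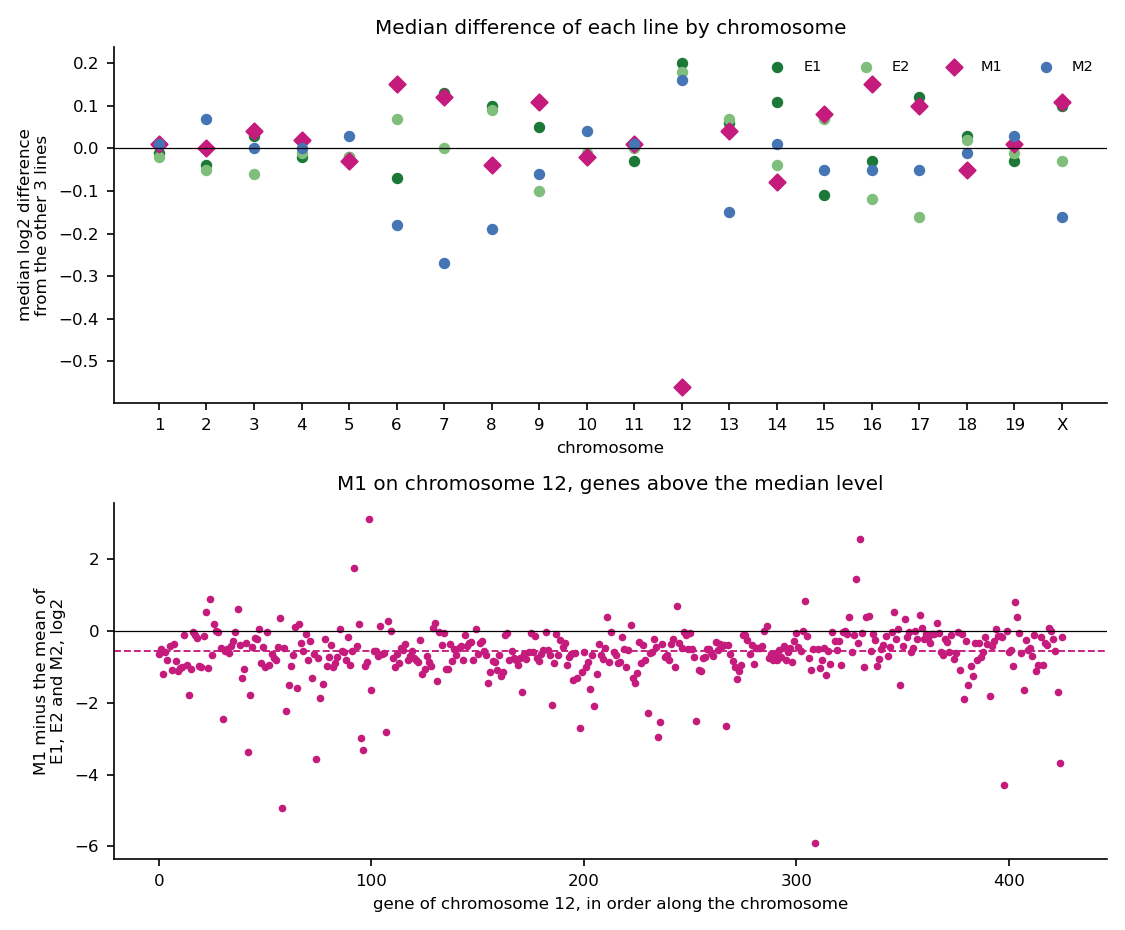
Top, median log2 difference of each line from the mean of the other 3, over genes above the median level on each chromosome; bottom, M1 minus the mean of E1, E2 and M2 for the 426 such genes of chromosome 12 in order. M1 on chromosome 12 lies at -0.56, away from all other points (-0.27 to 0.20), and its genes spread around the dashed median over the whole chromosome.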

How the data were processed

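Expression in 4 clonal mouse tumor cell lines was measured on 1 array each. The authors deposited normalized log2 levels, which run from 2.28 to 14.5. The labels name Partek for the processing, with no version, and the study's methods name the export of CEL files. Background correction, normalization and summarization are not given in the sources used here, nor is a genome build. The methods name a column kit for the RNA and the labels name Trizol. Medians of the arrays were 6.75 to 6.85.

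The table has 35556 probe sets. Of these, 21789 have 1 gene symbol, 12146 have none and 1621 name more than 1 gene. M1 was set against the mean and the range of E1, E2 and M2, with fold thresholds of 1.5, 2, 4 and 10. The test was limma 3.58.1 in R 4.3.3 (lmFit and eBayes) over the 23410 probe sets with a symbol, with Benjamini-Hochberg adjustment at 0.05, and it was tested on simulated data. For genes, the probe set with the highest mean was used. Named genes are the 4 markers Igfbp7, Dcn, Stac2 and Baiap2l1, the 6 with the widest gap in each direction and size class, those with the widest gap in a list, the called genes and those next to a threshold. Genes outside this rule are said to be chosen after their values were seen. The comparison and the lists were chosen with earlier results of these data known. Chromosomes and neighbours came from the RefSeq gene table of GRCm38.p6, matched by gene identifier, and start regions from its sequence table. Some genes of the lists are not listed under 1 symbol and are not reported here, nor is 1 of the lists. Alternatives were other scalings, filters, probe set choices, a variance trend and leaving out each line. The count without chromosome 12 was added after seeing the data.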

Additional observations from a re-analysis of the deposited data

How the results depend on the processing

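The limma count of 22 probe sets became 38 after quantile normalization, 36 after median centring, 249 with values under the olfactory receptor level of 6.24 set to it, 11 over all probe sets, 36 with 1 probe set per gene and 62 with a variance trend. Over probe sets with a mean above the median it was 0 (966 at an unadjusted p under 0.05), and when each line was left out it ran from 0 (without E1 or E2) to 1879 (without M2). The cause was not tested. No paired analysis was possible because each group holds 1 line.

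Each count of M1 outside the range stayed within 1.5 times under both other scalings, but the split of 5707 above and 5627 below became 4483 and 7712 after centring and 5291 and 6389 after quantile normalization. With the floor, 3550 probe sets were below, and 61 above and 33 below at 10-fold. Over probe sets with a mean above the median, which tests fewer, 3786 were above and 3160 below. Over all probe sets, including those with no gene, 9895 were below, 935 of them by 2-fold. When the gap to the nearest line set the size, 328 were above and 166 below at 2-fold, and 37 and 9 at 10-fold. Leaving out a line gave 687 to 1243 above and 543 to 1100 below at 2-fold, and 60 to 217 above and 22 to 193 below at 10-fold, with the highest count each time without M2, where the range is that of E1 and E2.

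Of 33 lists with a median difference of at least 0.1 in size, 33 kept its sign under quantile normalization and under centring, 26 with the floor, and 31, 32 and 32 without E1, E2 and M2. Centring moved the median of all genes from -0.007 to -0.063. When a line was left out, the median of MHC class I presentation ran from -0.05 (without E1) to 0.28 (without E2), and that of interferon-stimulated genes from -0.69 (without E1) to 0.43 (without E2). Leaving out a line moved the chromosome 12 median between -0.56 and -0.55, and it was -0.60 after quantile normalization and -0.62 after centring. Signal near background limits genes under the olfactory level, where small differences have no clear order.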
